A study of Homo sapiens with 4 samples.

Results

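The growth factor receptor tyrosine kinases described here are 10 genes taken by symbol from the 16376 genes of the expression table, namely EGFR, ERBB2, ERBB3, FGFR1, FGFR2, FGFR3, MET, RET, KIT and DDR1, and all 10 were listed. The cells were LASCPC-01, a human neuroendocrine prostate cancer (NEPC) line made by combined expression of NMYC and activated AKT1. They were treated with PBS as the control or with fluoxetine, an antidepressant that blocks serotonin reuptake, with 2 libraries in each group collected at day 3 according to the labels. The labels give no dose, and the study's text gives a shorter exposure than the labels. Both groups share the same line, labelled WT, and the same HITES medium with added insulin and serum, so the comparison rests on a single line whose AKT1 input is built in. The labels do not say whether the 2 libraries of a group came from separate cultures. The p-values therefore measure only the spread between these libraries, in part borrowed from other genes of like level.

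Receptor tyrosine kinases are single-pass membrane proteins. Most pair up when a growth factor binds outside the cell, and the paired receptors phosphorylate each other on tyrosines. They recruit adaptors that lead to the RAS-ERK and PI3K-AKT pathways. In prostate epithelium, ERBB, FGF and MET receptors carry signals from the surrounding stroma, and several of them are drug targets in other carcinomas. KIT and RET are best known from stem, germ, haematopoietic and neural crest lineages.

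The libraries held between 32873603 and 34831389 reads, solved from the FPKM (fragments scaled to gene length and to library depth), and reads could be solved for 16079 of the 16080 genes above 0. Over all genes tested, none of them an independent replicate, the 2 PBS libraries correlated at r = 0.993 and the 2 fluoxetine libraries at r = 0.994 on the log2 scale. Fluoxetine library 1 stood apart in how its values ran with gene length, lower for long genes, with a correlation of -0.286 between log2 length and the deviation from the mean of the 4 libraries, against 0.0449 in fluoxetine library 2, 0.0555 in PBS library 1 and 0.192 in PBS library 2. The label of the cells was only partly matched by neuroendocrine markers. INSM1, NCAM1, SOX2 and ENO2 were at or above 1 FPKM, whereas SYP was at 0.451 FPKM on average and CHGA, CHGB, NEUROD1 and FOXA2 were below 0.1. MYCN was at 360.7 FPKM and AKT1 at 71.4. The luminal markers KRT8, KRT18 and EPCAM were at 441.9, 386.1 and 242.2 FPKM, and all 3 listed basal markers were below 0.1.

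Of the stromal, immune and endothelial markers, COL1A1, ACTA2 and CD68 reached 1 FPKM. The stromal markers summed to 7.48 to 8.54 FPKM in PBS and 6.32 to 8.67 in fluoxetine, the immune markers to 2.77 to 3.99 and 2.76 to 3.62, and the endothelial markers to 0.205 to 0.218 and 0.105 to 0.170. The defining markers PTPRC, PDGFRB and PECAM1 were below 0.1 FPKM in every library, and the part of other cells in any result was not tested. In bulk RNA, fewer cells of a type and less RNA per cell cannot be told apart.

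The promoters of the receptors are shown for the members the results turn on: EGFR, which was near the limit of detection, RET and KIT, which had the most negative log2 fold changes of the tested receptors, and MET, a well expressed member. Each window holds 250 bases before and 50 after the transcript start furthest 5′ in RefSeq on GRCh38.p14, all on the plus strand. It spans chr7:55018767-55019066 for EGFR, chr10:43076819-43077118 for RET, chr4:54657707-54658006 for KIT and chr7:116671946-116672245 for MET. Capitals mark GGGCGG, the core of the GC box bound by SP1, and ACGTG, the core letters of the element bound by hypoxia-inducible factors, each searched on both strands. Overlapping matches run together.

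EGFR: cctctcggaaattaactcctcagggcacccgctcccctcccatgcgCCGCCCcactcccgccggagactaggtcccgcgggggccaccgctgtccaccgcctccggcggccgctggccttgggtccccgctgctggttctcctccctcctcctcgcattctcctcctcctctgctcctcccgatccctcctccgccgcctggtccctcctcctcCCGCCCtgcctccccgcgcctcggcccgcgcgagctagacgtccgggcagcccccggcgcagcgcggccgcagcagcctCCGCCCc

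RET: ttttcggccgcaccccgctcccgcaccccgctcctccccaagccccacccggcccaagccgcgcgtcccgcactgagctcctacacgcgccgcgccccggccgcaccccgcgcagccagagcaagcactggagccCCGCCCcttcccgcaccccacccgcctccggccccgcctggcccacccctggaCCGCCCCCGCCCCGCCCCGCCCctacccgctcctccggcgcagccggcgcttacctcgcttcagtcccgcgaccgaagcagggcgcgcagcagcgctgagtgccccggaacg

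KIT: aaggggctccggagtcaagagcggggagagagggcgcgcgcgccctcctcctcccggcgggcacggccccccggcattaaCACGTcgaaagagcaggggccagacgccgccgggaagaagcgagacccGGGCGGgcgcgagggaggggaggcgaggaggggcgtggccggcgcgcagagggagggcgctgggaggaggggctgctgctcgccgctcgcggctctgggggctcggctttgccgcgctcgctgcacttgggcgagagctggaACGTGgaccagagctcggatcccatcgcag

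MET: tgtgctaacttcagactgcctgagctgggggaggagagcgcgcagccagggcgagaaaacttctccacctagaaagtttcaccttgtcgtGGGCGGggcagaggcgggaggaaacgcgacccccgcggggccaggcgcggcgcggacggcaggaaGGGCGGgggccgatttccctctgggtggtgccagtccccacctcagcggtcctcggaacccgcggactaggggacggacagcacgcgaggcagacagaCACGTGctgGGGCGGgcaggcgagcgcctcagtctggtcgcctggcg

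RefSeq windows were found for 8 of the 10 receptors and not for ERBB3 and FGFR1. GGGCGG was found 3 times for EGFR, 5 times for RET, once for KIT and 3 times for MET, and at least once in 44.5% of the 27305 windows of all genes. It was also found 5 times for FGFR2 and 8 times for FGFR3, and not for ERBB2 and DDR1. ACGTG was found on both strands for KIT at separate places and for MET as the palindrome CACGTG, but not for the other 6, and 21.6% of all windows hold it. GC content was 75.3% for EGFR, 78.7% for RET, 74.3% for KIT and 69.3% for MET, against a median of 58.3% over all windows. These letters describe the windows and say nothing about which factors bind there. RefSeq lists several windows for EGFR, FGFR2, RET and DDR1, and which of them these cells use was not tested.

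The receptors were expressed over a wide range, from DDR1 at 38.6 FPKM to EGFR at 0.0298 FPKM on average over the 4 libraries. FPKM are scaled by gene length, so levels can be set side by side between genes. In order, the means were 38.6 for DDR1, 18.6 for ERBB3, 13.2 for MET, 12.3 for FGFR3, 6.69 for ERBB2, 5.54 for FGFR2, 3.44 for KIT, 2.45 for FGFR1, 1.21 for RET and 0.0298 for EGFR. The ranges over the libraries overlapped between MET and FGFR3 and between ERBB2 and FGFR2, so the order within these pairs did not exceed the spread. All other neighbours were separated in every library, at the lengths behind the FPKM. DDR1 alone was 35.5% to 39.9% of the summed FPKM of the 10 receptors.

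**Figure D1:**
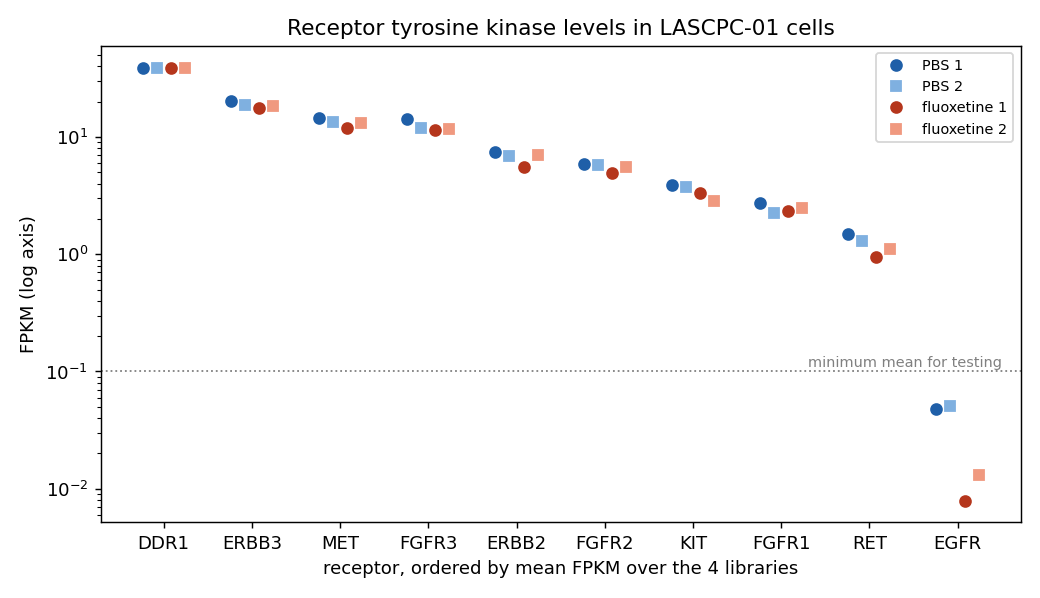
FPKM of the 10 receptors on a log axis, 1 point for each PBS (blue) and fluoxetine (red) library, with receptors ordered by their mean. DDR1 lies highest at 38.3 to 39.0 FPKM, and EGFR is the only receptor under the dotted line at 0.1 FPKM, the minimum mean for testing.

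Differences between the groups were tested with limma on log2 values after a pseudocount of 0.1 FPKM was added. The fit took in the 12663 genes that averaged at least 0.1 FPKM, with Benjamini-Hochberg adjustment over all of them. On this scale a fold change understates the change of low genes. Of the 10 receptors, 9 passed the minimum and EGFR did not. No receptor had an adjusted p under 0.05, where 0.237% of all genes tested (30 genes) did. At an unadjusted p under 0.05 there were 2 receptors, KIT and RET, against 8.51% of all genes. With limma voom on the recovered reads, 0 receptors were called, where 0.442% of all genes were, and KIT and RET again had an unadjusted p under 0.05, against 11.3% of all genes. For a single gene, the two-sided exact permutation test of 2 libraries against 2 cannot go below p = 0.333.

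The tested receptors were mostly lower in fluoxetine, by small amounts. The log2 fold change was negative for 8 of 9, with a median of -0.15, where the median over all genes tested was -0.02 and 56.5% of genes were negative. In 6 of the 9, namely ERBB3, MET, FGFR3, FGFR2, KIT and RET, both fluoxetine libraries lay below both PBS libraries, as they did for 24.8% of all genes tested. No receptor had both fluoxetine libraries above both PBS libraries, which held for 16.7% of all genes. The receptors are long genes, with lengths of 4463 to 10869 bases behind their FPKM and a median of 6368, against 3820 over all listed genes.

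The length trend of each library was also removed, a choice made once the data had been seen. The median was then -0.07, and 3 of 9 receptors, FGFR3, RET and KIT, had both fluoxetine libraries below both PBS libraries, against 20.0% of all genes. DDR1 then had both fluoxetine libraries above both PBS libraries, as did 19.4% of all genes. Without fluoxetine library 1, the one with the strongest length trend, the median was -0.07 as well, and it was -0.09 without PBS library 1, -0.20 without PBS library 2 and -0.20 without fluoxetine library 2.

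**Figure D2:**
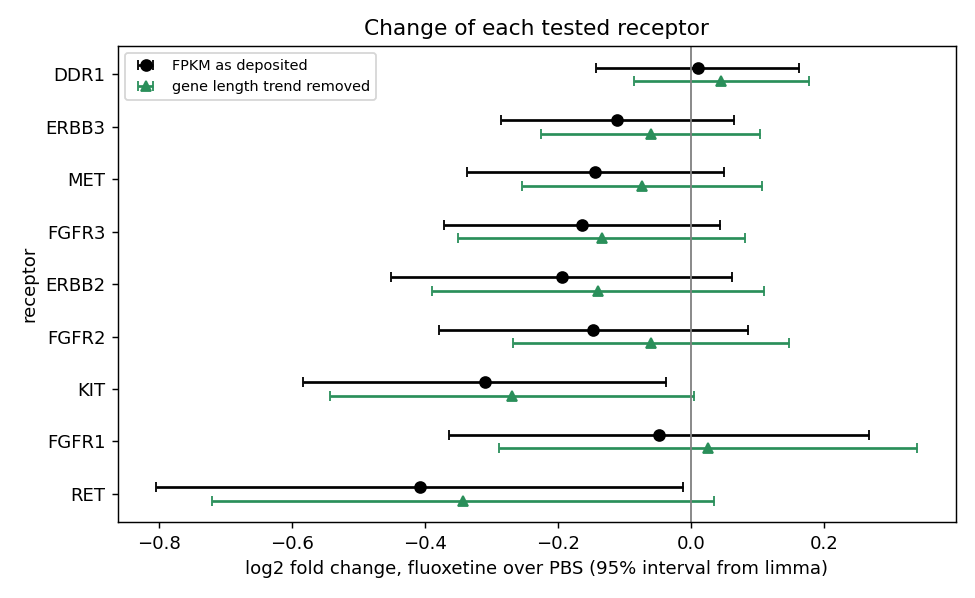
The log2 fold change of fluoxetine over PBS for the 9 tested receptors with its 95% interval from limma, as deposited (black circles) and with the gene length trend of each library removed (green triangles). As deposited, only the intervals of KIT and RET exclude 0, and with the trend removed all 9 include it, with every point shifted to the right.

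DDR1, a receptor for collagens rather than for a soluble factor, had the highest FPKM of the 10 and of all 56 listed receptor tyrosine kinases. It spans chromosome 6 from 30876421 to 30900156 (GENCODE 29, GRCh38, ENSG00000204580.13). The PBS libraries held 38.6 and 38.3 FPKM and the fluoxetine libraries 38.5 and 39.0 FPKM. The groups overlapped. Its log2 fold change was 0.01 with a 95% interval of -0.14 to 0.16 (adjusted p = 0.980). With 6125 to 6551 reads in each library, counting error was at most 1.28% of the value.

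Among the ERBB receptors, the transcripts of ERBB3 were the most abundant and those of EGFR nearly absent. ERBB3, on chromosome 12 from 56076799 to 56103505 (ENSG00000065361.15), binds neuregulins, has very weak kinase activity of its own, signals through a partner such as ERBB2, and recruits PI3K directly. It was at 20.1 and 18.6 FPKM under PBS and at 17.5 and 18.3 FPKM under fluoxetine. The fluoxetine libraries were both lower, by little, with a log2 fold change of -0.11 (95% interval -0.28 to 0.06, adjusted p = 0.679). It was -0.06 without PBS library 1. Its span overlaps AC034102.2 on the same strand, which was not among the listed genes.

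ERBB2, on chromosome 17 from 39687914 to 39730426 (ENSG00000141736.13), has no known ligand and acts as the shared partner of the family. Its PBS libraries were at 7.39 and 6.87 FPKM and its fluoxetine libraries at 5.55 and 6.96 FPKM. Fluoxetine library 2 lay between the PBS libraries, so the groups overlapped, and the log2 fold change of -0.19 (95% interval -0.45 to 0.06) had an adjusted p of 0.625. It was -0.03 without fluoxetine library 1 and -0.36 without fluoxetine library 2. Its span overlaps MIEN1 and PGAP3 on the other strand, at 43.8 and 3.78 FPKM, and the use of strand in counting is not given in the sources used here. ERBB3 was 2.63 to 3.15 times as abundant as ERBB2 in each library.

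EGFR, the receptor for EGF and its relatives, spans chromosome 7 from 55019021 to 55211628 (ENSG00000146648.17). It had 17 and 19 reads under PBS and 3 and 5 reads under fluoxetine, on a gene length of 10869 bases. In FPKM these were 0.0476 and 0.0503 against 0.00793 and 0.0132, with 1 read worth between 0.00264 and 0.00280 FPKM. Both fluoxetine libraries were lower, and the rate over the summed reads was 4.63 times higher under PBS, with an exact 95% interval of 2.12 to 11.5 that covers counting error only. EGFR was below the minimum for testing. With no minimum, its log2 fold change on the FPKM + 0.1 scale was -0.43 (unadjusted p = 0.00317 and adjusted p = 0.635 from limma). In that fit 1175 of 16376 genes had an unadjusted p under 0.05 and 0 were called. ERBB2 exceeded EGFR by 137 to 155 times under PBS and by 527 to 700 times under fluoxetine. The antisense gene EGFR-AS1, which lies within the span of EGFR, was not among the listed genes.

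**Figure D3:**
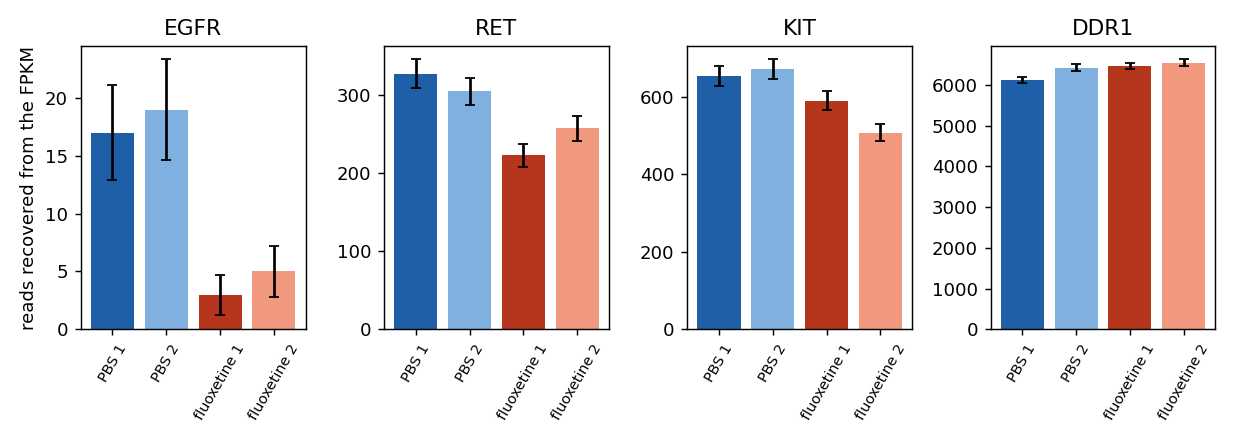
Reads recovered from the FPKM in each library for EGFR, RET, KIT and DDR1, with bars from 0 and whiskers of 1 square root of the reads, which cover counting error only. EGFR has 3 to 19 reads, RET 223 to 328, KIT 508 to 671 and DDR1 6125 to 6551. Reads are not corrected for the depth of the library, which differs by little.

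MET, the receptor for hepatocyte growth factor, which drives cell scattering and growth, spans chromosome 7 from 116672390 to 116798386 (ENSG00000105976.14). It was at 14.5 and 13.3 FPKM under PBS and at 12.0 and 13.2 FPKM under fluoxetine. The groups did not overlap, but PBS library 2 and fluoxetine library 2 were close, and the log2 fold change was -0.14 (95% interval -0.34 to 0.05, adjusted p = 0.633). It was -0.07 without fluoxetine library 1 and -0.09 without PBS library 1. Its ligand HGF, named after its values were seen, had 0 and 1 reads under PBS and 3 and 0 reads under fluoxetine.

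The 10 include 3 FGF receptors, which bind fibroblast growth factors together with heparan sulphate. They were ordered FGFR3, FGFR2 and FGFR1 in every library. Their relative FGFR4, outside the 10 and named after its values were seen, was at 1.70 and 2.92 FPKM under PBS. Under fluoxetine FGFR4 was at 2.38 and 2.39 FPKM, so its range overlapped that of FGFR1. FGFR3, on chromosome 4 from 1793293 to 1808872 (ENSG00000068078.18), was at 14.1 and 12.0 FPKM under PBS and at 11.5 and 11.7 FPKM under fluoxetine. PBS library 1 stood above the other 3 libraries, and the log2 fold change was -0.16 (95% interval -0.37 to 0.04, adjusted p = 0.620). Without PBS library 1 it was -0.05, and without PBS library 2 it was -0.28. FGFR2, on chromosome 10 from 121478334 to 121598458 (ENSG00000066468.22), is the FGF receptor that epithelia use to respond to stromal FGFs. It was at 5.90 and 5.73 FPKM under PBS and at 4.94 and 5.56 FPKM under fluoxetine. The groups did not overlap, and its log2 fold change was -0.15 (95% interval -0.38 to 0.09, adjusted p = 0.680). It was -0.06 without fluoxetine library 1 and -0.23 without fluoxetine library 2.

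FGFR1, on chromosome 8 from 38400215 to 38468834 (ENSG00000077782.20), was at 2.74 and 2.24 FPKM under PBS and at 2.33 and 2.47 FPKM under fluoxetine. Both fluoxetine libraries lay between the PBS libraries, and the log2 fold change was -0.05 (95% interval -0.36 to 0.27, adjusted p = 0.946), with the sign turning in 3 alternatives, to 0.09 without PBS library 1. Its span overlaps LETM2 on the other strand, at 0.296 FPKM. FGFR3 was 4.72 to 5.33 times and FGFR2 2.12 to 2.55 times as abundant as FGFR1. Summed over FGFR1, FGFR2 and FGFR3, without FGFR4, FPKM were 22.7 and 19.9 under PBS and 18.8 and 19.7 under fluoxetine.

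KIT and RET had the largest log2 fold changes of the tested receptors. KIT, the receptor for stem cell factor, spans chromosome 4 from 54657918 to 54740715 (ENSG00000157404.15). It was at 3.88 and 3.76 FPKM under PBS and at 3.30 and 2.84 FPKM under fluoxetine, and both fluoxetine libraries were lower. The means were 3.82 ± 0.0852 and 3.07 ± 0.326 FPKM (SD, n = 2 each). Its log2 fold change was -0.31 (95% interval -0.58 to -0.04, unadjusted p = 0.0294 and adjusted p = 0.541 from limma). RET, the receptor for the GDNF family, which signals with a GFRA co-receptor, spans chromosome 10 from 43077027 to 43130351 (ENSG00000165731.18). It was at 1.48 and 1.30 FPKM under PBS and at 0.952 and 1.10 FPKM under fluoxetine, and both fluoxetine libraries were lower as well, with means of 1.39 ± 0.126 and 1.03 ± 0.105 FPKM (SD, n = 2 each).

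The log2 fold change of RET was -0.41 (95% interval -0.80 to -0.01, unadjusted p = 0.0448 and adjusted p = 0.566 from limma). RET rested on 223 to 328 reads and KIT on 508 to 671. Counting error was 5.52% to 6.70% of the value for RET and 3.86% to 4.44% for KIT. Under the alternatives the log2 fold change stayed negative for both, between -0.50 and -0.24 for RET and between -0.41 and -0.20 for KIT, and the adjusted p was never under 0.338. The value nearest 0 for KIT was the one without fluoxetine library 2, and that for RET came with a pseudocount of 1 FPKM.

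**Figure D4:**
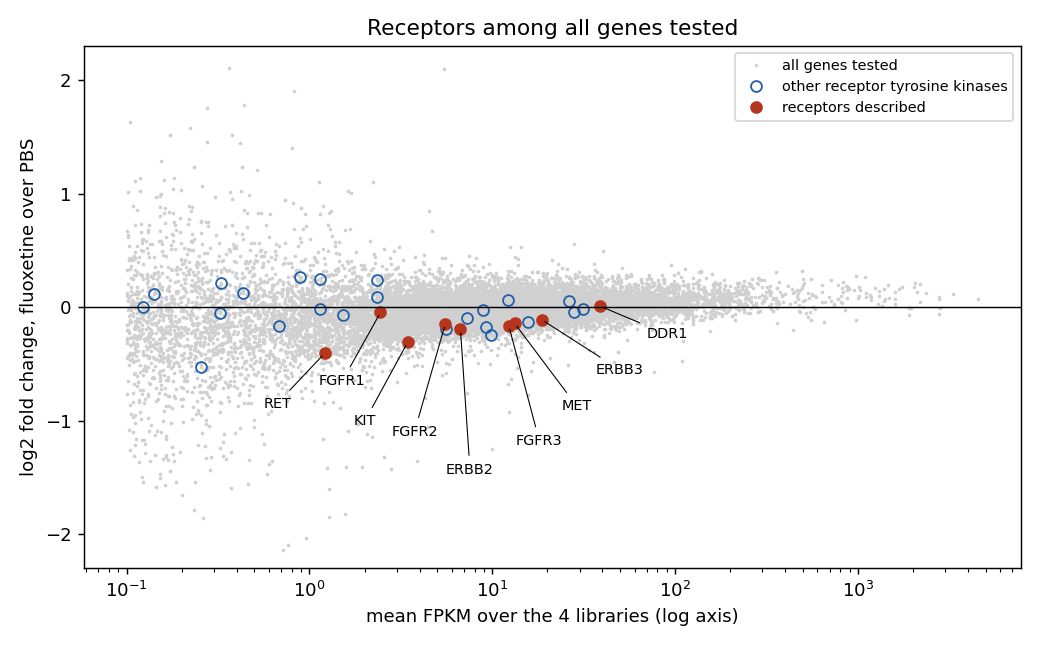
Mean FPKM on a log axis against the log2 fold change of fluoxetine over PBS for the 12663 genes tested (grey dots), the 23 other receptor tyrosine kinases tested (blue circles) and the 9 receptors described (red). The red points lie between -0.41 and 0.01, within the cloud of genes of like level.

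The other receptor tyrosine kinases form the rest of the family. Of 48, 46 were listed and 23 were tested. None was called by limma or voom, against 0.237% and 0.442% of all genes. At an unadjusted p under 0.05 there were 1 by limma (EPHA2) and 3 by voom (EPHA2, IGF1R and LMTK2), against 8.51% and 11.3% of all genes. The median log2 fold change of the 23 was -0.02, the same as over all genes tested. Of the 23, 13 were negative, against 56.5% of all genes. The most abundant were PTK7 at 31.3 FPKM, a pseudokinase of Wnt signalling, RYK at 28.1 FPKM, another Wnt receptor, MST1R at 26.1 FPKM, the relative of MET, and the ephrin receptor EPHA7 at 15.8 FPKM. EPHA2, an ephrin receptor, was at 10.4 and 10.9 FPKM under PBS and 8.61 and 9.34 under fluoxetine, so that both fluoxetine libraries were lower, and its log2 fold change was -0.25 (adjusted p = 0.525). EPHA4 was at 2.20 and 2.08 FPKM under PBS and 2.33 and 2.79 under fluoxetine, with a log2 fold change of 0.24 (adjusted p = 0.624). Whether the described receptors and the rest of the family differ was not tested.

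Ligands of the 10 receptors were expressed by the same cells for some families and not for others. Of 39 ligand genes 31 were listed, 18 were tested and 9 reached 1 FPKM. The highest was ARTN, a GDNF-family ligand of RET, at 31.4 and 33.6 FPKM under PBS and 31.3 and 30.5 under fluoxetine (log2 fold change -0.07). Its co-receptor GFRA3 was listed at 0 in all 4 libraries, and GFRA1 and GFRA2 had at most 10 reads in any library. These co-receptors were named after their values were seen. HBEGF and TGFA, which bind EGFR, were at 13.2 and 6.62 FPKM on average, with log2 fold changes of -0.01 and -0.07, while EGFR itself was near 0. Its relative ERBB4, outside the 10 and named after its values were seen, was at 1.53 FPKM. Which receptors these ligands act through here was not tested.

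FGF1, which binds all FGF receptors, was at 4.43 FPKM (log2 fold change -0.01), and FGF9 was at 1.40 and 1.41 FPKM under PBS and 1.31 and 1.02 under fluoxetine (log2 fold change -0.26, adjusted p = 0.668). The neuregulins NRG2 and NRG4 were at 2.50 and 1.19 FPKM, with log2 fold changes of 0.14 and -0.27 (adjusted p = 0.785 and 0.642). NRG2 binds ERBB3, and NRG4 acts mainly through ERBB4. KITLG, the ligand of KIT, was at 1.92 FPKM with a log2 fold change of 0.04, and the collagen gene COL1A1 was at 2.44 FPKM with -0.25. No ligand was called by limma or voom, against 0.237% and 0.442% of all genes, and the median over the 18 was -0.05. At an unadjusted p under 0.05 there were 2 by limma (PSPN and FGF21) and 3 by voom (these and NRG4), against 8.51% and 11.3%. PSPN passed the minimum only through fluoxetine, with means of 0.0868 FPKM under PBS and 0.635 under fluoxetine. FGF21 passed it only through PBS, with 0.187 and 0.0213. The p-values of these 2 genes therefore lend no support to a change.

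Of 13 co-receptor genes 10 were listed and 6 were tested, all proteoglycans or the FGF-binding FGFRL1, which lacks a kinase domain. GPC1, FGFRL1, SDC3 and SDC1 were at 21.5, 21.1, 14.6 and 9.87 FPKM. FGFRL1 was the 1 co-receptor with both fluoxetine libraries below both PBS libraries, as in 24.8% of all genes tested. It was at 21.0 and 23.1 FPKM under PBS and 19.5 and 20.8 under fluoxetine (log2 fold change -0.13, adjusted p = 0.638). None of the 6 was called by limma or voom, against 0.237% and 0.442% of all genes. At an unadjusted p under 0.05 there were 0 by either, against 8.51% and 11.3% of all genes. The median was -0.07.

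The adaptors and RAS-ERK kinases that carry the signal onward were all listed, and 27 of 29 were tested. MAP2K2, PTPN11, GRB2 and HRAS were the most abundant at 53.0, 37.5, 36.1 and 35.6 FPKM, with log2 fold changes of 0.02, -0.10, 0.00 and 0.12. SOS1, an exchange factor that loads RAS, was at 12.6 and 13.6 FPKM under PBS and 10.4 and 12.0 under fluoxetine, so that both fluoxetine libraries were lower, and its log2 fold change was -0.23 (adjusted p = 0.552). None of the 27 was called by limma or voom, against 0.237% and 0.442% of all genes, and the median was -0.04. At an unadjusted p under 0.05 there were 3 by limma, among them SOS1 and the docking protein gene GAB2. There were 4 by voom, among them these and BRAF. Over all genes the shares were 8.51% by limma and 11.3% by voom.

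Of the 16 negative regulators 15 were tested, with a median of -0.10 and 12 lower, where 56.5% of all genes tested were lower. The median length of the 16 was 5800 bases, against 3820 over all listed genes, and fluoxetine library 1 was lower for long genes. The part of gene length in these changes was not tested. None was called by limma or voom, against 0.237% and 0.442% of all genes. At an unadjusted p under 0.05 there were 0 by limma and 2 by voom (CBL and PTPRF), against 8.51% and 11.3% of all genes. The receptor phosphatases PTPRF and PTPRJ and the phosphatases PTPN1 and PTPN6 were the most abundant, at 34.5, 24.7, 22.1 and 13.5 FPKM, with log2 fold changes of -0.19, -0.13, -0.10 and -0.12. CBL, a ubiquitin ligase that sends activated receptors to lysosomes, was at 9.87 and 9.96 FPKM under PBS and 7.27 and 9.75 under fluoxetine (log2 fold change -0.23, adjusted p = 0.609). LRIG3, of a membrane protein family that modulates receptor levels, was at 3.38 and 3.64 FPKM under PBS and 3.98 and 4.10 under fluoxetine (0.20, adjusted p = 0.621).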

How the data were processed

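RNA of LASCPC-01 cells was sequenced as paired-end reads, and the authors deposited 1 FPKM value per library for 16376 genes. The submitters' processing notes name fastp, HISAT2, HTSeq and GRCh38, without versions or roles. The gene annotation and the use of strand are not given in the sources used here. The labels name a stranded TruSeq kit and the methods a VAHTS kit, and the fluoxetine titles carry PP. The study's methods name DESeq2, which FPKM do not allow.

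Samples were grouped by the treatment label, and all 4 columns matched 1 sample each. Depth was solved as the value shared by the largest number of genes (65 to 68 per library) at their GENCODE 29 exon lengths. For each gene the smallest whole length that gave whole reads in all 4 libraries was taken, within 1e-05 of a read plus rounding. It was raised to the GENCODE length where that is a multiple, and otherwise to at least 200 bases where shorter. True lengths and reads could be multiples of these, and the length matched GENCODE for 145 genes. The method was tested on simulated data, as was the limma fit.

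Groups were compared by limma 3.58.1 under R 4.3.3, with lmFit and a variance trend in eBayes, on log2 values. This step draws the variance of each gene toward that of genes of like level. Tables and figures used Python 3.11.15, pandas 2.3.3, scipy 1.17.1 and matplotlib 3.10.9. The interval of the read ratio is an exact conditional one (Clopper-Pearson bounds of the PBS share, divided by the ratio of depths) and covers counting error only, as no molecular identifiers are named. The receptors and the gene lists were chosen with earlier results of these data known. Named genes were all 10 receptors, and in each list the 4 with the highest mean, any called, and the 2 that differed most on the log2 scale in either direction, out of those of at least 1 FPKM whose groups did not overlap, besides all ligands of at least 1 FPKM and the cell markers, of which some genes are not reported here. The closing section gives the effect of the 16 alternatives.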

Additional observations from a re-analysis of the deposited data

How the results depend on the processing

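The 9 tested receptors had an adjusted p of at least 0.338 under all 16 alternatives, so 0 receptors were called in each. Of 145 values of single receptors, 5 changed sign: DDR1 was at -0.037 after rescaling to TPM and at -0.0082 with quantile normalization, and FGFR1 was at 0.028 with quantile normalization, at 0.027 with the gene length trend removed (chosen after seeing the data) and from -0.19 to 0.091 with 1 library left out, the highest without PBS replicate 1. The median over the receptors lay between -0.20 and -0.07. The count of genes called over all genes was 30, and it was 0 with no filter on low values (1175 at an unadjusted p under 0.05), 0 by limma without the variance trend (933), 16 with quantile normalization, 64 with the replicate block, 56 with limma voom, and 3 to 17 with 1 library left out, where a lone library is assumed to vary like the others. With the replicate block, 1 pathway gene was called, PSPN, against 0 otherwise. PSPN had passed the minimum only through its fluoxetine libraries, so this call lends no support to a change. Libraries with the same number had deviations from their group mean that correlated at 0.0351, and the labels do not say that a number marks a shared batch. The cause of these shifts was not tested. Depth limits EGFR, with 3 to 19 reads.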

Other observations

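PSPN, a ligand of RET through GFRA4, was singled out after its values were seen. The PBS libraries held 4 and 0 reads and the fluoxetine libraries 20 and 11, 0.174 and 0 FPKM against 0.820 and 0.451. Its log2 fold change of 2.10 was the largest positive one of the 12663 genes tested, with an adjusted p of 0.161 from limma and 0.00673 with the replicate block. PSPN passed the minimum of 0.1 FPKM only through the fluoxetine libraries, with a mean of 0.635 FPKM against 0.0868 under PBS. Its rank and p-values thus belong to a gene kept by the group where it is high, and lend no support to a change. GFRA4 was not among the listed genes, and RET itself was lower in both fluoxetine libraries.

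The insulin receptor gene INSR, singled out in the same way, had 0 and 1 reads under PBS and 0 and 2 reads under fluoxetine. Its relatives IGF1R and INSRR were at 5.55 and 0.882 FPKM, and the medium of these cells contains insulin.

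FGF21 and FGF22 had few reads in both groups. FGF22 had 4 and 5 reads under PBS and 0 in both fluoxetine libraries, and FGF21 had 9 and 8 reads under PBS and 2 and 0 under fluoxetine.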
